A study of Mus musculus with 9 samples.

Results

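Cadherins and protocadherins are membrane proteins that hold cells together through extracellular cadherin repeats, which need calcium to keep their shape. Classical cadherins bind catenins inside the cell and anchor the adherens junction to actin. Clustered protocadherins lie in the Pcdha, Pcdhb and Pcdhg gene clusters and are best known for giving single neurons a surface identity, while the other protocadherins are spread over the genome. In muscle, M-cadherin (Cdh15) and N-cadherin (Cdh2) are the cadherins best known for contact between myoblasts. Their RNA was followed here in C2C12 cells, an established wild-type line of mouse myoblasts, across 9 RNA-seq libraries. There were 3 libraries of cells given 750 µM pentanoate for 48 h, 3 of cells given 750 µM butyrate for 48 h, and 3 of control cells, for which the labels name no treatment. Pentanoate and butyrate are short-chain fatty acids that differ by a single carbon in chain length. All cells grew in DMEM with fetal bovine serum and antibiotics, and all come from a single cell line. The labels do not state whether libraries of the same group stem from separate cultures. The p-values therefore cover the spread between these samples, which may be technical.

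A gene was a member if it was annotated as protein-coding, had a symbol of Cdh plus a number or a symbol starting with Pcdh, and reached at least 10 counts in at least 3 of the 9 libraries. Of 92 protein-coding genes with such a symbol, 37 were members, out of 54697 genes in the whole table. They were 10 of 23 cadherins, 22 of 57 clustered protocadherins and 5 of 12 other protocadherins, and all 37 were tested. The rule counts libraries over all 3 groups and uses no difference between them, but Pcdhga2 would not have reached it without the pentanoate libraries. Just inside the threshold, Pcdhga2 had 2 to 18 counts a library and 91 in all, with 5 libraries at 10 or more. Just outside it, Pcdhga4 had 69 counts in all and 2 such libraries, and Pcdhga12 had 59 counts and 1 such library. The 55 genes left out held 0 to 69 counts in all libraries together, and 19 of them held none.

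Total counts ranged from 15829262 to 19305981 a library, and the members together took 0.0977% to 0.122% of them. Control 3 stood apart with 3.95% of its counts from mitochondrially encoded genes, against 1.79% to 2.32% in the other 8 libraries, and leaving it out changed the calls of 2 members, Pcdhgc5 and Cdh17, as given with their values. All 10 genes of a myoblast marker list had counts in every group. Their summed level was 1570 to 1993 CPM (counts scaled to a fixed library size, after TMM scaling) with pentanoate, 1347 to 1724 CPM with butyrate and 1322 to 1995 CPM in control cells. Of 18 neuron markers, Rbfox3, Snap25, Elavl4, Dcx and Gad1 were at 0 in all 9 libraries, yet the list summed to 52.2 to 55.2 CPM with pentanoate, 48.2 to 52.9 CPM with butyrate and 19.0 to 20.3 CPM in control cells. Most of that sum was Stmn2, a regulator of microtubules. In such bulk libraries, fewer cells that express a gene and less RNA of it per cell cannot be told apart.

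By level per kilobase of a gene's annotated exon bases, averaged over the 9 libraries, the leading member was Cdh15 at 49.3 CPM per kb. Pcdhgc3, a Pcdhg gene of the C type, followed at 28.0 CPM per kb, and Cdh2 at 18.7 CPM per kb. Pcdh19, a nonclustered protocadherin that works together with N-cadherin in zebrafish, stood at 17.4 CPM per kb, and Cdh11, the osteoblast or mesenchymal cadherin, at 12.7 CPM per kb. The range below them ran through Cdh24 at 10.1, Pcdh18 at 8.45, Pcdh1 at 5.78, Pcdh7 at 5.52 and Cdh13 at 5.14 CPM per kb, down to Pcdh10 at 0.0432 CPM per kb. The most abundant Pcdhb genes were Pcdhb17 at 2.45 CPM per kb and Pcdhb21 at 2.29 CPM per kb. E-cadherin (Cdh1), the main cadherin of epithelia, averaged 1.16 ± 0.34 CPM with pentanoate, 1.63 ± 0.44 CPM with butyrate and 1.29 ± 0.33 CPM in control cells (SD, n = 3 each). VE-cadherin (Cdh5), the cadherin of blood vessel walls, had 4 counts in all 9 libraries together, P-cadherin (Cdh3) had 3 and R-cadherin (Cdh4) had 0.

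**Figure D1:**
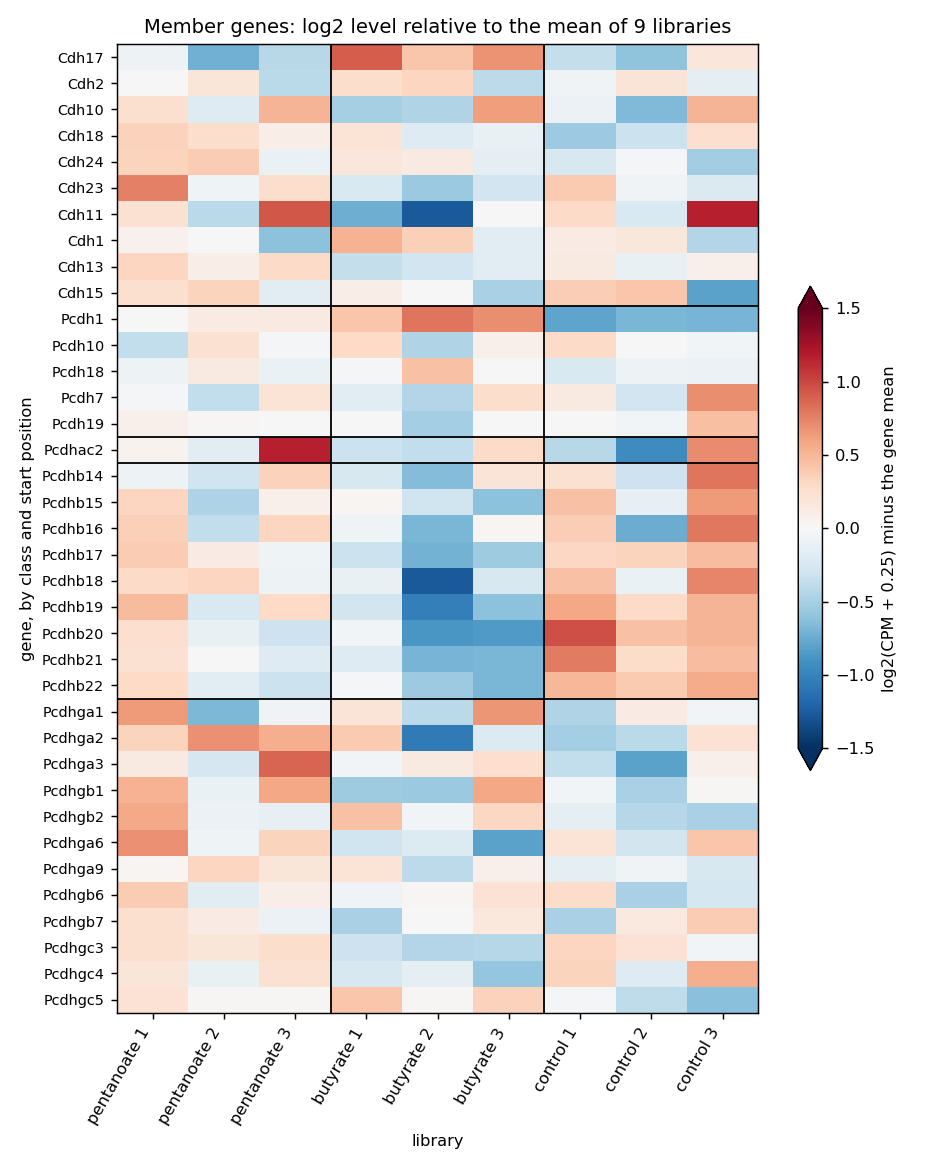
Level of the 37 members in each library (columns) as log2(CPM + 0.25) minus the gene's mean over 9 libraries, with genes in rows by class and position and black lines between classes and groups. Pcdh1 is high in the 3 butyrate libraries and low in the 3 control libraries, and the Pcdhb rows are mostly low with butyrate, while Cdh11 and Cdh15 vary as much within a group as between groups.

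In the fit that left out the replicate number, butyrate changed a small set of protocadherins and no cadherin was called. Pcdh1 rose, and a run of neighbouring Pcdhb genes fell together with Pcdhgc3, while Pcdhgc5 from the same cluster as Pcdhgc3 rose. Of the 37 members, 8 were called at an adjusted p under 0.05 (edgeR's quasi-likelihood test, Benjamini-Hochberg adjustment over 14066 genes), which is 21.6% of them, against 11.4% of all genes tested. The 2 higher members stand against 6.43% of all genes called higher, and the 6 lower members against 4.95% called lower. All 8 lie between positions 37484795 and 38212053 of chromosome 18, which holds 24 of the 37 members. With the replicate number as a block, 13 members were called, 4 of them cadherins, and 20.7% of all genes. When 1 library was left out, the share of all genes called ranged from 5.23% without butyrate 2 to 15.9% without control 3, and 4 members were called without butyrate 2 or butyrate 3, 5 without control 1 and 7 or 8 otherwise. The median log2 change was −0.17 over the members and −0.02 over all genes tested, and the members' median was −0.02 without control 3, −0.28 without butyrate 1 and −0.35 without butyrate 3. The 29 members that were not called include 16 whose 95% interval reached a log2 change of 1 or more in size. These intervals come from the fit without the replicate block, which left room for changes of that size. Intervals with the block were not computed. Its SE was smaller in all of the 29 but Pcdhga2 and Pcdh10, as for Cdh11 at 0.07 against 0.42 without it.

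**Figure D2:**
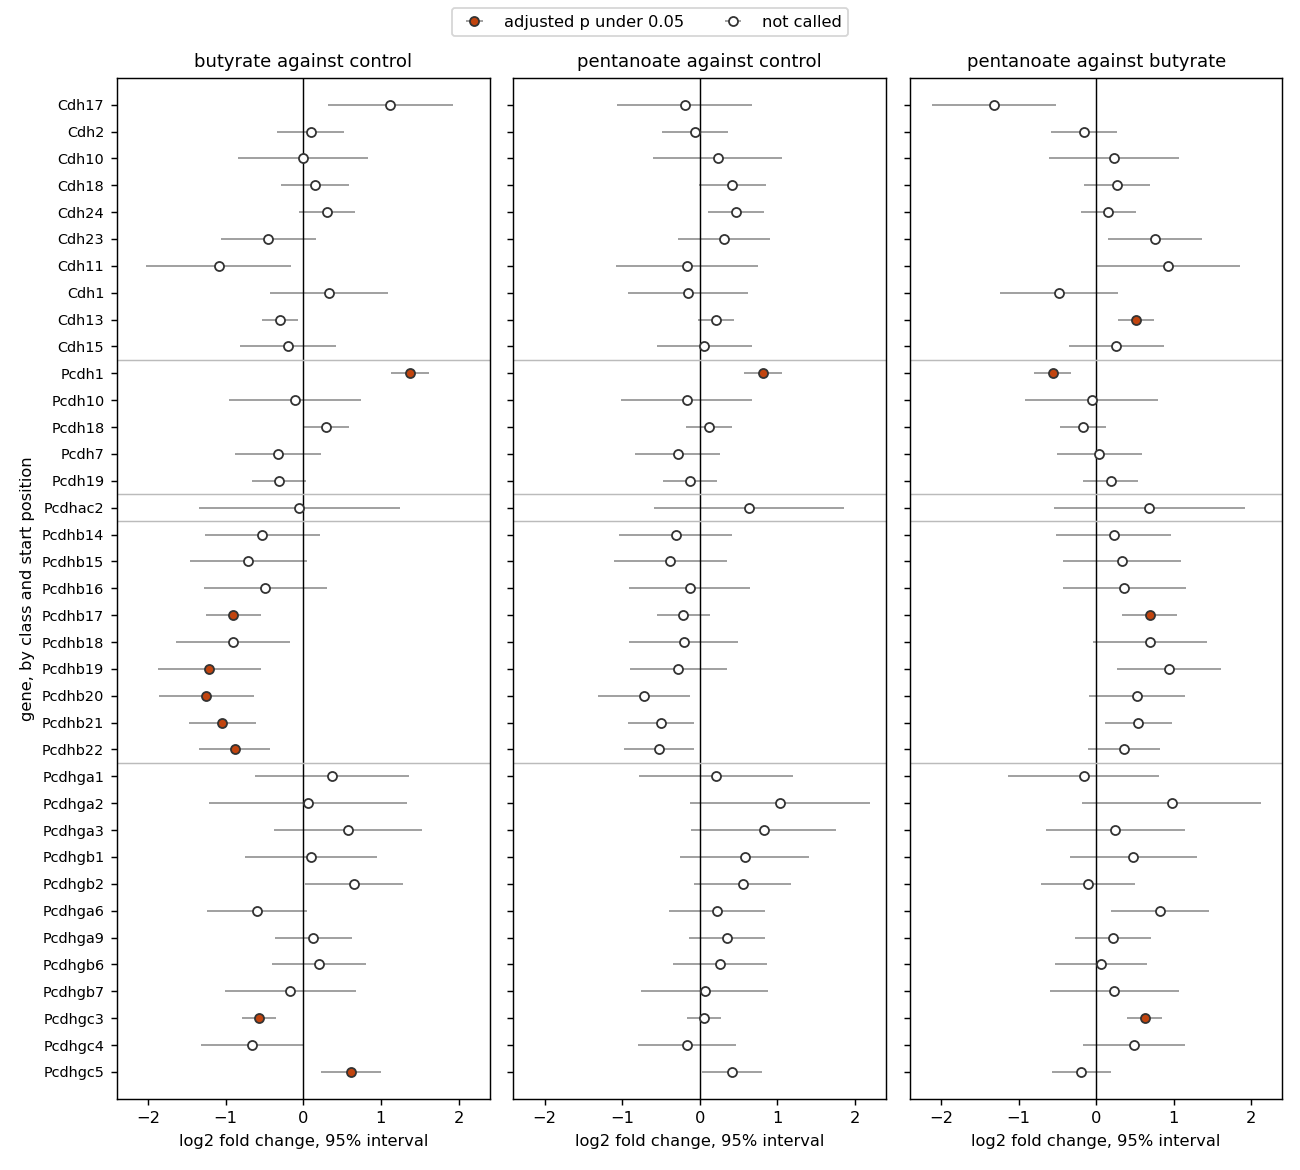
Log2 fold change of each of the 37 members with its 95% interval (bar) in the 3 comparisons, with genes from top to bottom by class and position and filled points at an adjusted p under 0.05. For butyrate against control, Pcdh1 lies at 1.38 and all 9 Pcdhb genes lie below 0, for pentanoate against control only Pcdh1 is filled, and for pentanoate against butyrate all 9 Pcdhb genes lie above 0.

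Pcdh1 (ENSMUSG00000051375, GRCm38 chromosome 18, 38185914 to 38212053, minus strand) encodes protocadherin 1, a nonclustered protocadherin known from airway epithelium. It had 62.9, 82.4 and 76.5 CPM with butyrate, against 27.1, 29.2 and 29.0 CPM in control cells. Every butyrate library was above every control library. The log2 change was 1.38 (SE 0.11, 95% interval 1.13 to 1.63), or 2.60-fold higher, with an adjusted p of 0.000124 by edgeR's quasi-likelihood test. It kept this call under each of 17 alternative settings, with log2 changes of 1.30 to 1.49. None of its transcript's 50-base windows occurs in the transcript of another gene, so the counts of Pcdh1 do not share reads with a near-identical copy at that length.

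The other 4 nonclustered protocadherins were not called with butyrate. Pcdh19 had 180, 126 and 178 CPM with butyrate, against 180, 175 and 246 CPM in control cells, a log2 difference of −0.31 (edgeR adjusted p = 0.243) with overlapping groups. Pcdh18 had 44.5, 61.3 and 45.0 CPM with butyrate, against 38.2, 42.6 and 42.2 CPM in control cells, a log2 difference of 0.29 (edgeR adjusted p = 0.195). Its lowest butyrate library lay just above its highest control library. Pcdh7, also called BH-protocadherin after brain and heart, was called lower only with the replicate block (log2 −0.30, edgeR adjusted p = 0.0417, against 0.455 without it). It had 50.5, 41.8 and 68.2 CPM with butyrate, against 62.7, 46.7 and 92.0 CPM in control cells. Within each replicate number the butyrate library was the lower of the pair, while over all 6 libraries the groups overlap. Its exons overlap 2235 exon bases of genes on the opposite strand, and whether counting used the strand is not stated. Pcdh10 was near the floor of the filter at 7 to 15 counts a library.

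The Pcdhb cluster spans positions 37264938 to 37524479 of chromosome 18 and holds 22 genes, each with its own full reading frame. The 9 members are Pcdhb14 to Pcdhb22, an unbroken run at its far end, while the 13 genes before them held 0 to 47 counts in all 9 libraries together. With butyrate the summed level of the run was 42.7 ± 8.82 CPM, against 78.4 ± 12.6 CPM in control cells (SD, n = 3 each), and the butyrate range of 34.4 to 52.0 CPM lay below the control range of 64.0 to 87.4 CPM. Each of the 9 had a negative log2 difference, with a median of −0.90, and 7483 of all 14066 genes tested were negative. The 9 are neighbours measured in the same libraries, so their signs are not 9 separate results. Among them 5 were called lower, against 4.95% of all genes tested. These were Pcdhb17 and Pcdhb19 to Pcdhb22.

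Pcdhb20 (ENSMUSG00000046191, chromosome 18, 37504264 to 37507822) had 5.05, 2.72 and 2.77 CPM with butyrate, against 10.4, 7.15 and 7.52 CPM in control cells, a log2 change of −1.25 (SE 0.28, edgeR adjusted p = 0.0156). Pcdhb19, the least abundant of the 5, had 1.59, 0.846 and 1.20 CPM with butyrate, against 3.09, 2.46 and 2.92 CPM in control cells (log2 −1.21, SE 0.30, edgeR adjusted p = 0.0268). Pcdhb21 had 8.93, 6.22 and 6.26 CPM with butyrate, against 17.6, 12.5 and 14.1 CPM in control cells (log2 −1.04, SE 0.20, edgeR adjusted p = 0.00738). In all 3 genes, picked because they were called, no butyrate library reached the level of any control library.

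Pcdhb17 (ENSMUSG00000046387, chromosome 18, 37484795 to 37489454) had 8.75, 6.65 and 7.53 CPM with butyrate, against 13.7, 13.9 and 15.2 CPM in control cells, a log2 change of −0.90 (SE 0.16, edgeR adjusted p = 0.00512). Pcdhb22 had 11.7, 8.04 and 7.29 CPM with butyrate, against 16.8, 15.6 and 17.6 CPM in control cells, a log2 change of −0.89 (SE 0.21, edgeR adjusted p = 0.0199). These groups did not overlap either, and how many of all genes tested have groups without overlap was not counted. Pcdhb17 and Pcdhb21 kept the call under all 17 alternative settings. Pcdhb19, Pcdhb20 and Pcdhb22 lost it without butyrate 2, without butyrate 3 or without control 1, with adjusted p-values up to 0.113, 0.0780 and 0.0938 in edgeR's test.

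Pcdhb18, which lies between called neighbours, had 3.11, 1.27 and 2.83 CPM with butyrate, against 4.66, 3.13 and 5.77 CPM in control cells. Its log2 difference of −0.90 was as large as that of Pcdhb17, and its groups lay close together without overlap, but its libraries spread more and the adjusted p was 0.112 (edgeR). Of the alternative settings, the one with no filter on low counts called it. Pcdhb14, Pcdhb15 and Pcdhb16 had log2 differences of −0.53, −0.71 and −0.49 and overlapping groups. Within each replicate number the butyrate library was the lower one for Pcdhb14 and Pcdhb15, but not for Pcdhb16. The block fit called none of them. Between 1.89% and 11.3% of the 50-base windows of a Pcdhb member occur in the transcript of another gene, and Pcdhb21 and Pcdhb22 have 455 exon bases in common. All 9 differences stayed negative under every scaling and every omission of a library, and the count called lower fell to 2 without butyrate 2, without butyrate 3 or without control 1.

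**Figure D3:**
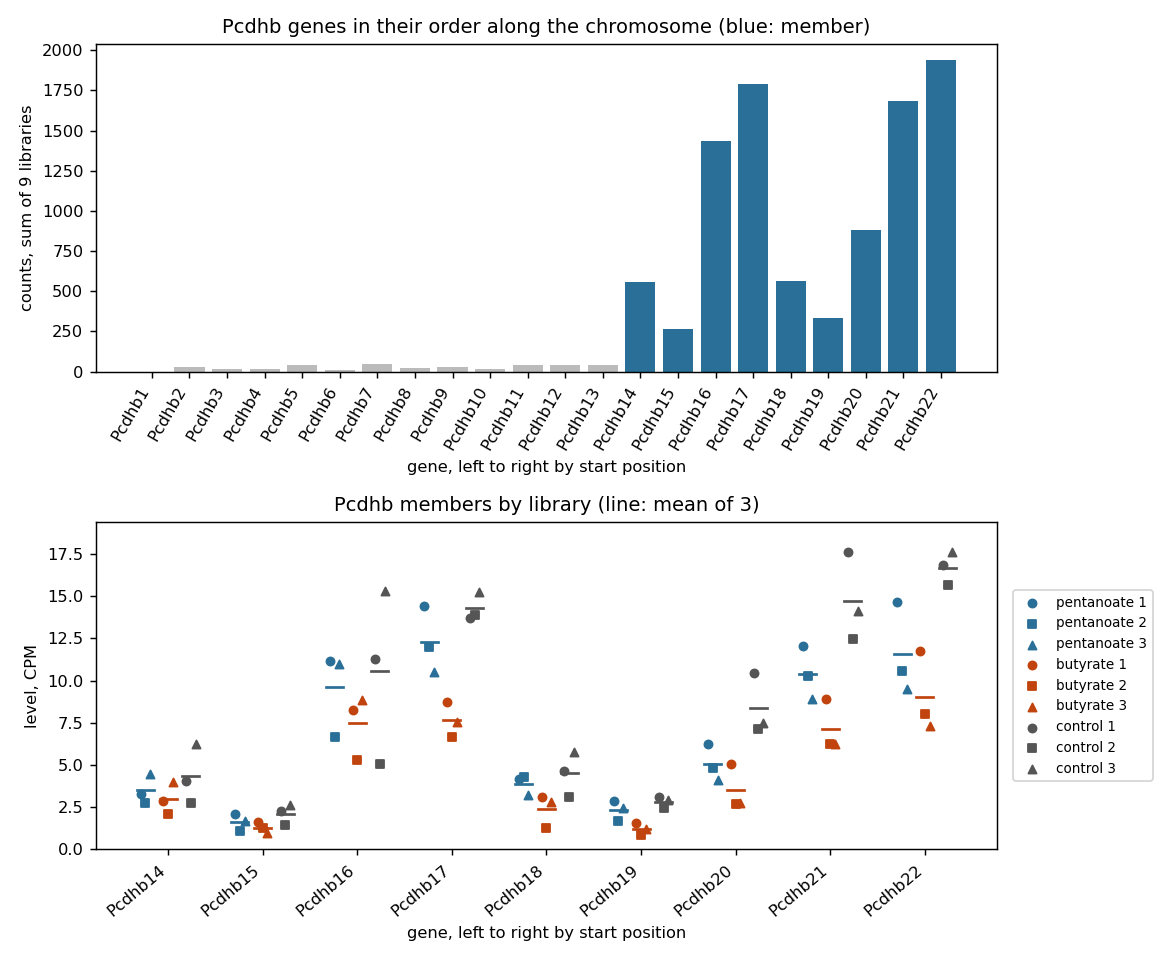
Top, counts summed over 9 libraries (bars) for the 22 Pcdhb genes in their order along the chromosome, with members in blue, and bottom, the level in CPM of the 9 members in each library with the mean of 3 libraries as a line. Counts are low up to Pcdhb13 and reach 1942 at Pcdhb22, and from Pcdhb19 to Pcdhb22 the butyrate libraries lie below the control libraries.

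The Pcdhg cluster (positions 37661793 to 37841873) works differently. Each of its genes joins its own first exon to constant exons that all of them share, and 12 of its 21 genes were members. In the annotation a Pcdhg member has 37.9% to 54.6% of its exon bases in common with other genes. How the authors' counting treated reads in those bases is not known, so the separate values of Pcdhg genes are uncertain. Pcdhgc3 held 24206 of the counts of this cluster over 9 libraries, and Pcdhgc5 held 1997. Pcdhgc3 also overlaps 1559 exon bases of genes on the opposite strand. With butyrate the cluster's members summed to 147 ± 8.57 CPM, against 197 ± 23.0 CPM in control cells (SD, n = 3 each).

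Pcdhgc3 (ENSMUSG00000102918, chromosome 18, 37806364 to 37841873) had 121, 111 and 112 CPM with butyrate, against 189, 175 and 146 CPM in control cells, a log2 change of −0.57 (SE 0.10, edgeR adjusted p = 0.00545). All butyrate libraries were below all control libraries, and the call held in each of 17 alternative settings. Pcdhgc5 (ENSMUSG00000102543, chromosome 18, 37819513 to 37841873), 2 genes further along, had 16.7, 12.6 and 15.9 CPM with butyrate, against 12.2, 9.50 and 7.97 CPM in control cells. Its log2 change was 0.61 (SE 0.17, edgeR adjusted p = 0.0475). The groups lay close together without overlap, and the call was lost in 9 of 17 alternative settings, among them 8 of the 9 omissions of a library, with an adjusted p of up to 0.148. Without control 3 the log2 change was 0.49 and the adjusted p 0.0686 (edgeR).

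The ratio of the 2 genes within a library, chosen after their values were seen, does not depend on how libraries are scaled. Pcdhgc5 had 13.8, 11.4 and 14.3 counts per 100 counts of Pcdhgc3 with butyrate, against 6.43, 5.44 and 5.45 in control cells. The means were 13.1 ± 1.54 with butyrate and 5.77 ± 0.57 in control cells (SD, n = 3 each), and the groups did not overlap. The exact two-sided permutation p was 0.1, the smallest that 3 against 3 libraries can give. This outcome was fixed by the choice of genes, as Pcdhgc3 was lower and Pcdhgc5 higher in every butyrate library than in every control library. It therefore adds no support to the 2 separate changes. With pentanoate the ratio was 8.17, 7.34 and 6.97, above the control libraries and below the butyrate libraries, with the same smallest p of 0.1 by the exact permutation test in each of these comparisons. The other 10 Pcdhg members were not called with butyrate. They had log2 differences of −0.65 for Pcdhgc4 to 0.65 for Pcdhgb2, and levels at or under 5.38 CPM in every library. Pcdhac2, the single Pcdha member, had 0.822, 0.785 and 1.39 CPM with butyrate, against 0.757, 0.447 and 1.94 CPM in control cells. It has 48.6% of its exon bases in common with other genes, so its values are uncertain in the same way as those of Pcdhg genes.

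**Figure D4:**
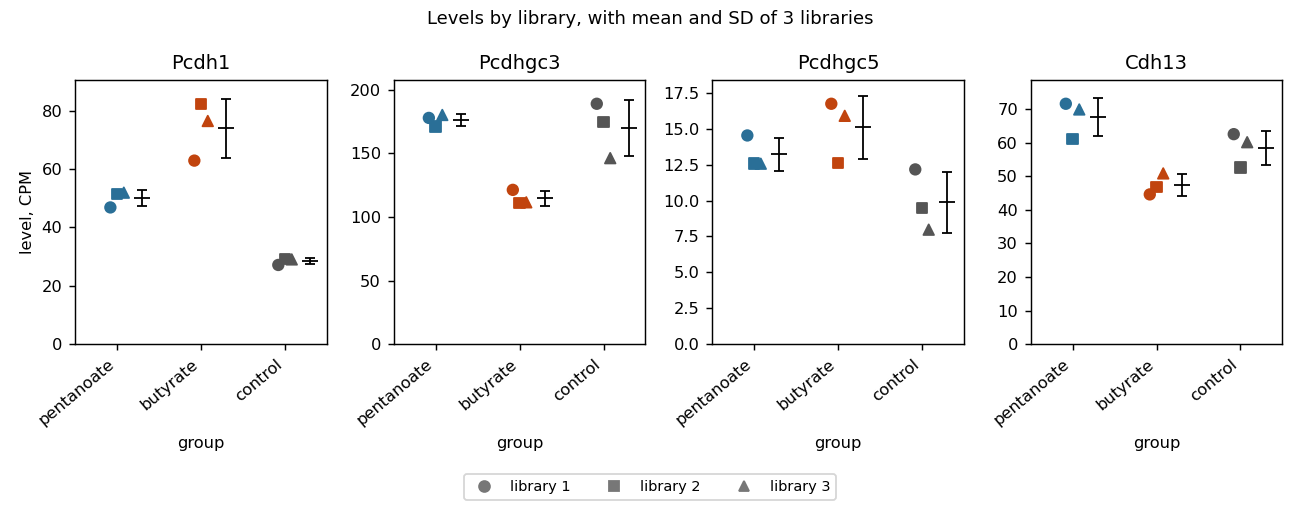
Level in CPM of Pcdh1, Pcdhgc3, Pcdhgc5 and Cdh13 in each library (points, with the replicate number as marker shape) and the mean with SD of 3 libraries (bars), for pentanoate, butyrate and control. Pcdh1 is highest with butyrate and lowest in control, and Pcdhgc3 is at 111 to 121 CPM with butyrate and at 146 CPM or more elsewhere.

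None of the 10 cadherins was called with butyrate by edgeR's test or by DESeq2, with 3 of them at an unadjusted p under 0.05, and 4 were called with the replicate block. Cdh15, which marks muscle precursors, had 166, 155 and 110 CPM with butyrate, against 200, 207 and 89.0 CPM in control cells, a log2 difference of −0.20 with a 95% interval of −0.81 to 0.41. Cdh2 had 179, 186 and 113 CPM with butyrate, against 143, 170 and 135 CPM in control cells, a log2 difference of 0.09 with an interval of −0.34 to 0.52. In both genes the spread within a group was larger than the difference between groups, and replicate 3 was the lowest of each group. These intervals leave out the block. With it the log2 differences were −0.14 (SE 0.14) for Cdh15 and 0.07 (SE 0.10) for Cdh2, and neither was called.

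Cdh11 (ENSMUSG00000031673, chromosome 8, 102632095 to 102785642) showed the opposite order within a group. It had 60.1, 41.6 and 101 CPM with butyrate, against 122, 85.1 and 224 CPM in control cells. In each replicate number the butyrate library was the lower one, while replicate 3 was the highest of each group and the groups overlap. The log2 difference was −1.09 with an edgeR adjusted p of 0.128 without the replicate block, and −1.07 (SE 0.07) with an adjusted p of 2.15e-05 with it. Without the block the difference was −0.61 when control 3 was left out and −1.48 when butyrate 3 was, with edgeR adjusted p-values of 0.478 and 0.0919. The replicate numbers pair the libraries of these groups, by a check that is described with the processing.

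The remaining cadherins called against control only with the block were Cdh13, Cdh24 and Cdh17, of which the last 2 are named because of these values. Cdh13 (T-cadherin), which is held in the membrane by a lipid anchor in place of a cytoplasmic tail, had 44.6, 46.8 and 50.8 CPM with butyrate, against 62.5, 52.6 and 60.1 CPM in control cells, without overlap. Its log2 difference was −0.30, with an adjusted p of 0.0910 in edgeR's test and 0.0347 with the block. Cdh24 had 39.0, 38.2 and 31.5 CPM with butyrate, against 29.2, 34.4 and 24.1 CPM in control cells, a log2 difference of 0.31 (edgeR adjusted p = 0.264, or 0.0296 with the block). Cdh17, a cadherin of liver and intestine, stood near the filter at 1.88, 1.27 and 1.57 CPM with butyrate, against 0.641, 0.503 and 1.04 CPM in control cells, also without overlap. Its log2 difference was 1.12 (edgeR adjusted p = 0.0750, or 0.0329 with the block), and it was also called when control 3 was left out (log2 1.46, edgeR adjusted p = 0.0329).

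**Figure D5:**
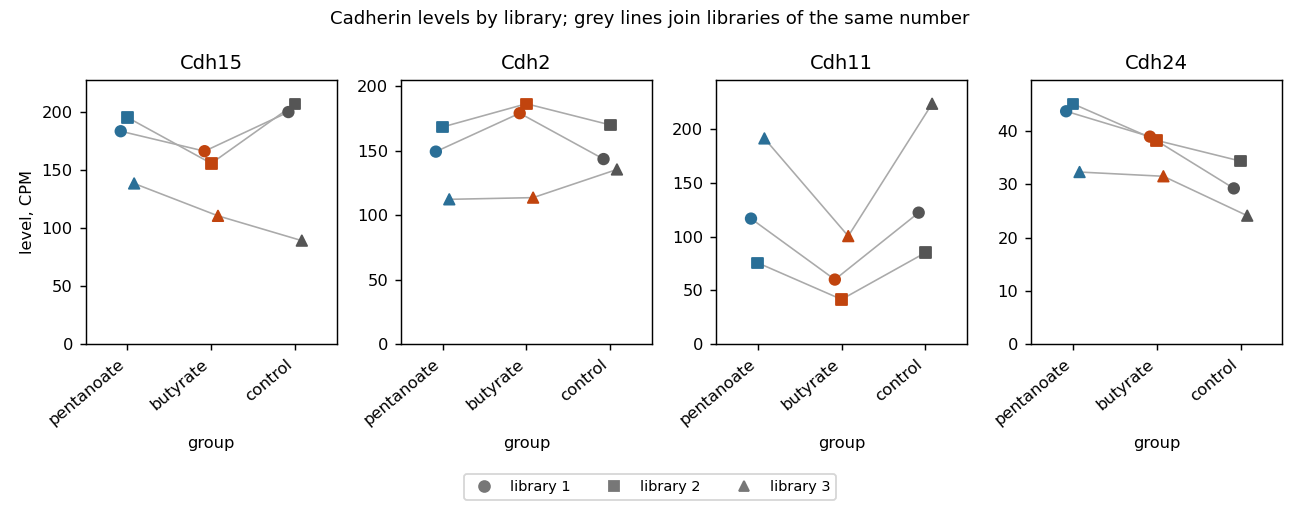
Level in CPM of Cdh15, Cdh2, Cdh11 and Cdh24 in each library for pentanoate, butyrate and control, with the replicate number as marker shape and grey lines joining libraries of the same number. Replicate 3 is lowest for Cdh15, Cdh2 and Cdh24 and highest for Cdh11 in every group, and the Cdh11 butyrate library is the lowest of each number.

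Pentanoate at the same dose and time changed Pcdh1 alone among the members in the test without the replicate block. This is 1 of 37 members, against 0.782% of all genes tested called higher, and 6 members had an unadjusted p under 0.05. Pcdh1 had 46.9, 51.5 and 51.9 CPM with pentanoate, against 27.1, 29.2 and 29.0 CPM in control cells, with no overlap. The log2 change was 0.82 (SE 0.11, 95% interval 0.57 to 1.06, edgeR adjusted p = 0.00839). The call was lost without pentanoate 3 or without control 1, with an adjusted p of up to 0.0623 and log2 changes between 0.77 and 0.87 over all alternatives. With the block 3 members were called and 3.65% of all genes. Over all directions 0.803% of genes were called, and 0.188% to 0.966% when 1 library was left out. The members added by the block were Cdh24 at 43.7, 45.1 and 32.3 CPM with pentanoate (log2 0.46, edgeR adjusted p = 0.0210, against 0.256 without the block) and Pcdhb20 at 6.26, 4.80 and 4.13 CPM with pentanoate (log2 −0.72, edgeR adjusted p = 0.0324, against 0.279).

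The Pcdhb members summed to 60.3 ± 9.23 CPM with pentanoate (54.1 to 70.9 CPM), and the control range of 64.0 to 87.4 CPM overlaps with it. Within each replicate number the pentanoate sum was the lower one, at 70.9 against 84.0, 54.1 against 64.0 and 55.9 against 87.4 CPM. All 9 log2 differences from control were negative, as were those of 7253 of all 14066 genes tested. The Pcdhb median was −0.31, but none of the 9 was called by edgeR or by DESeq2, and 3 had an unadjusted p under 0.05. Without control 3, 6 of the 9 were negative, and without pentanoate 2, 8 were. The median was −0.18 without either of these libraries and −0.55 without control 2. The 12 Pcdhg members had a median log2 difference of 0.31 from control (0.19 without pentanoate 1), with 0 called by either tool and 1 at an unadjusted p under 0.05. Pcdhgc3 stood at 178, 171 and 180 CPM with pentanoate, with a 95% interval of −0.17 to 0.28 for its log2 difference from control. Pcdhgc5 had 14.5, 12.6 and 12.6 CPM with pentanoate, a log2 difference of 0.42 (edgeR adjusted p = 0.329). Cdh15 had 183, 195 and 138 CPM, Cdh2 had 149, 168 and 112 CPM, and Cdh11 had 117, 75.7 and 192 CPM with pentanoate, with log2 differences of 0.06, −0.06 and −0.17 from control, each of which changed sign when 1 library or another was left out. Pcdh7 had 55.8, 43.8 and 65.4 CPM, Pcdh18 had 42.5, 49.5 and 42.1 CPM and Pcdh19 had 189, 182 and 179 CPM with pentanoate, and none of them was called.

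Between the acids at matched dose and time, a single pair of compounds was compared, and 4 of 37 members differed, 10.8% of them against 3.42% of all genes tested. The 3 members higher with pentanoate stand against 1.81% of all genes, and the 1 member lower against 1.61%. With the block 9 members were called and 10.5% of all genes, and in the fit of these 2 groups alone 5 members and 9.70%. Without control 3 it was 5 members and 10.2%, and without pentanoate 1 it was 0 members and 0.523%. Pcdh1 was lower with pentanoate (46.9 to 51.9 CPM) than with butyrate (62.9 to 82.4 CPM), a log2 difference of −0.56 (SE 0.11, 95% interval −0.80 to −0.32, edgeR adjusted p = 0.0213). Pcdhgc3 was higher with pentanoate (171 to 180 CPM) than with butyrate (111 to 121 CPM), a log2 difference of 0.62 (SE 0.10, edgeR adjusted p = 0.0108). Cdh13 (ENSMUSG00000031841, chromosome 8, 118283733 to 119324921) had 71.6, 61.1 and 69.9 CPM with pentanoate, against 44.6, 46.8 and 50.8 CPM with butyrate, a log2 difference of 0.51 (SE 0.10, edgeR adjusted p = 0.0259). Pcdhb17 had 10.5 to 14.4 CPM with pentanoate, against 6.65 to 8.75 CPM with butyrate, a log2 difference of 0.69 (SE 0.16, edgeR adjusted p = 0.0426). In none of these 4 genes, picked because they were called, did the groups overlap. The share of all genes tested whose groups do not overlap was not counted.

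Pcdhgc3 lost its call in 4, Cdh13 and Pcdh1 in 5 each, and Pcdhb17 in 7 of the 9 omissions of a library and with upper-quartile scaling, and no member was called without butyrate 2, butyrate 3, pentanoate 1 or pentanoate 3. Without butyrate 1 or pentanoate 2, 2 members were called, Pcdhgc3 in both cases, with Pcdh1 and with Cdh13. All 9 Pcdhb members had positive log2 differences for pentanoate against butyrate, as did 7108 of all 14066 genes tested. The Pcdhb median was 0.53 against 0.00 over all genes, and 1 of the 9 turned negative without pentanoate 3. The median was 0.34 without pentanoate 1 and 0.35 without butyrate 2. Their sums were 54.1 to 70.9 CPM with pentanoate and 34.4 to 52.0 CPM with butyrate, and 1 of the 9 was called, or 3 with the block (Pcdhb19 and Pcdhb21 added, edgeR adjusted p = 0.0287 and 0.0226). Cdh11 was higher with pentanoate than with butyrate in each replicate number, with a log2 difference of 0.92 that was called with the block (edgeR adjusted p = 0.000127, against 0.288 without it). Without pentanoate 3 the unblocked difference was 0.49. The block also added Cdh23, a cadherin of hair-cell tip links, which had 5.48, 2.98 and 3.80 CPM with pentanoate, against 2.64, 2.05 and 2.53 CPM with butyrate (log2 0.76, edgeR adjusted p = 0.0422, against 0.175 without it). Cdh17 had a log2 difference of −1.32 for pentanoate against butyrate, with an edgeR adjusted p of 0.0767. It was called lower with the block (adjusted p = 0.0279), without control 3 (0.0365) and in the fit of the 2 groups alone (0.0427). Cdh1, Cdh2, Cdh10, Cdh15 and Cdh18 were not called in any comparison, with or without the block.

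Of the 33 members not called between the acids without the block, 15 had a 95% interval from that fit within a log2 difference of 1 on either side. Cdh2 had an interval of −0.58 to 0.27, Pcdh19 of −0.16 to 0.53 and Cdh15 of −0.36 to 0.87. For the other 18, the interval reached beyond a log2 difference of 1. An adjusted p above the threshold does not show that the acids act alike on these genes.

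The partners and regulators of these proteins were taken from gene lists, and each count stands against the shares over all genes tested. For butyrate against control these were 6.43% higher and 4.95% lower, or 10.8% and 9.95% with the block. For pentanoate against control 0.782% were higher, and with the block 3.01% were higher and 0.647% lower. For pentanoate against butyrate 1.81% were higher and 1.61% lower, or 6.12% and 4.42% with the block. Among adherens junction partners, 19 of 22 genes were tested, and 5 were higher and 3 lower with butyrate, with a median log2 difference of 0.03. The block called 7 higher and 3 lower. Ctnnb1 (β-catenin) was close to control, at 579 ± 12.7 CPM with butyrate, against 579 ± 21.0 CPM in control cells. So was Ctnna1 (α-catenin), at 949 ± 84.0 CPM, against 956 ± 72.9 CPM (SD, n = 3 each). Ctnnd1, Jup and Ctnnal1 of the same list had log2 differences of −0.22, −0.20 and 0.34 and were not called without the block. With it Ctnnal1 was called higher (edgeR adjusted p = 0.0239). Of the 8 called genes, 4 encode nectins, which are calcium-independent adhesion molecules of the junction, and the others were Arvcf and Afdn (higher) and Actn1 and Pkp2 (lower). Nectin2 had 35.1 ± 3.29 CPM with butyrate, against 20.8 ± 4.11 CPM in control cells (log2 0.76, edgeR adjusted p = 0.00831), and Nectin1 had 24.8 ± 4.50 CPM, against 14.4 ± 2.06 CPM (log2 0.78, edgeR adjusted p = 0.0120). Nectin4 was called at a level of 0.699 ± 0.180 CPM with butyrate, against 0.0372 ± 0.0645 CPM in control cells. Nectin3 was lower, at 44.1 ± 2.61 CPM with butyrate, against 56.8 ± 4.80 CPM in control cells (log2 −0.36, edgeR adjusted p = 0.0382). With pentanoate against control none of the 19 was called by edgeR, 7 had an unadjusted p under 0.05, DESeq2 called 2 and the block called 3. Between the acids edgeR and DESeq2 called 0, 3 had an unadjusted p under 0.05, and the block called 1 higher and 1 lower with pentanoate.

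Among 9 tested of 27 listed other cadherin superfamily genes, 4 were higher with butyrate, 0 were lower, and the median log2 difference was 0.53. For pentanoate 1 was higher than in control, and 2 were lower than with butyrate. The block called 7 higher with butyrate, 3 higher and 1 lower for pentanoate against control, and 3 lower for pentanoate against butyrate. Clstn1 and Clstn3 encode calsyntenins, cadherin-like proteins of the secretory pathway and the synapse. Clstn1 had 374 ± 13.9 CPM with butyrate, against 275 ± 24.3 CPM in control cells (log2 0.44, edgeR adjusted p = 0.00885), and 391 ± 7.09 CPM with pentanoate (log2 0.51, edgeR adjusted p = 0.0267). Clstn3 had 3.68 ± 0.89 CPM with butyrate, against 0.884 ± 0.331 CPM in control cells (log2 2.06, edgeR adjusted p = 0.00327). Fat2, a large atypical cadherin, had 1.32 ± 0.50 CPM with pentanoate, against 5.03 ± 1.21 CPM with butyrate (log2 −1.92, edgeR adjusted p = 0.0139), and 1.24 ± 0.34 CPM in control cells.

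Adam12, a metalloprotease that is active in muscle precursors, was among the 13 tested of 14 genes for cadherin cleavage and trafficking. It had 22.0 ± 1.64 CPM with butyrate, against 74.4 ± 6.03 CPM in control cells (log2 −1.76, edgeR adjusted p = 4.85e-05), and 59.2 ± 7.63 CPM with pentanoate. In the same list Adam15 was higher with butyrate (log2 0.64, edgeR adjusted p = 0.00588), and Adam12 and Adam19 were higher with pentanoate than with butyrate (log2 1.43 and 0.47). For pentanoate against control 0 were called by edgeR, 2 had an unadjusted p under 0.05 and DESeq2 called 1. With the block, 2 were higher and 4 lower for butyrate against control, and for pentanoate against control Adam15 was higher and Adam12 lower (edgeR adjusted p = 0.0174 and 0.0499). Of the 7 tested repressors of cadherin genes and factors of epithelial-mesenchymal transition, edgeR called 0 in any comparison. For butyrate against control 3 had an unadjusted p under 0.05, DESeq2 called 2 and the block called 3 lower. For pentanoate, 0 against control and 1 against butyrate had an unadjusted p under 0.05, DESeq2 called 0 of each, and the block called 1 higher against butyrate. All 18 listed regulators of the clustered protocadherin genes, which include the insulator protein Ctcf, cohesin subunits and Smchd1, were tested, and edgeR called 0 in each comparison. There were 2, 2 and 1 of them at an unadjusted p under 0.05 for butyrate against control, pentanoate against control and pentanoate against butyrate, and DESeq2 called 0, 0 and 1. The block called 1, the DNA methyltransferase gene Dnmt3a, higher with pentanoate than with butyrate (edgeR adjusted p = 0.0266). Ctcf had 100 ± 4.92 CPM with butyrate, against 103 ± 3.66 CPM in control cells (SD, n = 3 each).

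Of 13 tested effectors that act downstream of protocadherins, 2 were higher and 1 lower with butyrate. Cyfip2, a part of the WAVE complex that directs actin branching, had 2.19 ± 0.23 CPM with butyrate, against 0.166 ± 0.162 CPM in control cells (edgeR adjusted p = 0.00379), and 0.433 ± 0.256 CPM with pentanoate. Fyn, a kinase of the Src family, had 55.1 ± 4.41 CPM with butyrate, against 42.2 ± 2.46 CPM in control cells (edgeR adjusted p = 0.0230). Marcks, an actin-binding protein, had 486 ± 26.7 CPM with butyrate, against 626 ± 52.2 CPM in control cells (edgeR adjusted p = 0.0274). Against butyrate, Cyfip2 was the 1 gene called with pentanoate (lower, edgeR adjusted p = 0.0380). For pentanoate against control 0 of the 13 were called by edgeR, 1 had an unadjusted p under 0.05, and DESeq2 called 1. With the block, 2 were higher and 2 lower for butyrate against control, Fyn was higher for pentanoate against control (edgeR adjusted p = 0.0287), and 1 was higher and 1 lower for pentanoate against butyrate.

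Some markers of other cell types moved with the groups. Of 6 tested neuron markers, 4 were higher with butyrate and 3 with pentanoate, led by Stmn2, L1cam and Mapt, and the block called 5 and 4. L1cam had 3.51 ± 0.85 CPM with pentanoate, 7.55 ± 1.53 CPM with butyrate and 0.848 ± 0.210 CPM in control cells. Epithelial markers summed to 29.8 to 68.7 CPM with pentanoate, 21.1 to 35.5 CPM with butyrate and 15.4 to 43.0 CPM in control cells, with Epcam and Esrp1 at 0 in all libraries. Endothelial markers summed to 5.90 to 13.3 CPM with pentanoate, 6.40 to 14.6 CPM with butyrate and 2.80 to 7.91 CPM in control cells, with Kdr, Tie1, Cldn5 and Erg at 0 in all libraries. Blood markers reached at most 3.87 CPM and Schwann and neural crest markers at most 5.50 CPM in any library, both with butyrate. With butyrate against control, edgeR called Krt19 (epithelial) and Erbb3 (neural crest) higher, with adjusted p-values of 0.00796 and 0.00269. Of the 2 Schwann and neural crest markers tested, the other was called lower, in the block fit as well. In the block fit Flt1 (endothelial) and Cd68 (blood) were also higher with butyrate, and Krt14 and Flt1 were higher with pentanoate, each against control. For pentanoate against butyrate, the block fit called Krt14 higher and Krt19 and Erbb3 lower. The part of these cell types in the changes of Pcdh1 and the clustered protocadherins was not tested. Of the 9 myoblast markers tested, 1 was higher and 3 were lower with butyrate, or 1 and 5 with the block. Myod1, a master regulator of the muscle lineage, had 45.5 ± 10.1 CPM with butyrate, against 84.3 ± 13.1 CPM in control cells (log2 −0.89, edgeR adjusted p = 0.00828). Chrna1 and Musk, which encode proteins of the neuromuscular junction, were also lower (log2 −0.97 and −0.56, edgeR adjusted p = 0.0155 and 0.0160), and the myogenic factor Myf5 was higher (log2 0.57, edgeR adjusted p = 0.0279). For pentanoate against control edgeR and DESeq2 called 0, with 1 at an unadjusted p under 0.05. Myod1 and Musk were higher with pentanoate than with butyrate (log2 0.82 and 0.65, edgeR adjusted p = 0.0304 and 0.0204), and the block called 5 higher.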

How the data were processed

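Per the labels' protocols, RNA was harvested in Trizol and sequenced after preparation with a SMARTER kit for mRNA. The deposited table holds the authors' raw counts per gene for 9 libraries, with gene symbols, Ensembl identifiers, coordinates and gene lengths. The genome build was GRCm38 (mm10), per the submitters' processing notes. The sources used here do not state the aligner, the counting program or the strand setting. Of the 54697 table lines, 165 carry no Ensembl identifier. Members and gene lists were chosen with earlier results of these data known. The rule for named genes takes members called in any comparison, a fixed set of well-known cadherins and protocadherins, the top 3 per kb of each class, and up to 3 called genes of smallest p in each other list. Genes outside this rule are named too. Among them are further called adherens junction genes, the listed catenin genes, Ctcf and genes called only with the block.

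Counts were tested as deposited. The filterByExpr function of edgeR left 14066 genes, and library sizes were scaled by TMM. edgeR's quasi-likelihood test (robust) was fitted to all 9 libraries with the group as factor and had 6 residual degrees of freedom. Benjamini-Hochberg adjustment ran over all tested genes in each comparison. The common biological coefficient of variation was 14.4%. Standard errors were approximated from the log2 change and the F value. The 95% intervals come from this fit, without the replicate block. They use the t distribution with 10.8 degrees of freedom, the prior and residual ones together. A member was called at an adjusted p under 0.05. The test was checked on simulated data. Alternatives were other scalings, other filters, DESeq2's Wald test, a replicate block, the 2 compared groups alone, and leaving out each library. With an omission, a group of 2 libraries shares the spread of the other groups. Shared exon bases and 50-base windows came from GENCODE release 21 of the mouse annotation, in which all 37 members had the deposited length.

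Replicate numbers come from the labels. Deviations from group means over genes correlated at r = 0.246 to 0.500 in all 9 same-numbered pairs, above the 0.1 taken as the criterion, so the numbers pair the libraries and values from the fit with the replicate block are given where it changes the call of a member or the count of a list. Total counts limit precision most for the 20 members under 5 CPM on average. Tests ran in edgeR 4.0.16 and DESeq2 1.42.0 under R 4.3.3, and figures in matplotlib 3.10.9 and pandas 2.3.3 under Python 3.11.15.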

Additional observations from a re-analysis of the deposited data

How the results depend on the processing

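The count of members called for butyrate against control stayed at 7 to 9 under other scalings, filters, DESeq2's Wald test and a fit to the 2 compared groups alone, was 13 with the replicate block, and ranged from 4 to 8 when a library was left out. For pentanoate against control it was 1 under these settings, 3 with the replicate block and 0 to 1 when a library was left out. For pentanoate against butyrate it was 3 to 5, 9 with the replicate block and 0 to 5 when a library was left out. The cause of these differences was not tested. No called member changed sign under any alternative run. Over all genes, the share of calls that were higher was 56.5% for butyrate against control and 68.8% with upper-quartile scaling, and 53.0% and 41.1% for pentanoate against butyrate, while the split of the members was 2 higher and 6 lower in each scaling for butyrate against control. Depth limits the 15 clustered protocadherins under 5 CPM on average.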
